A study of Mus musculus with 12 samples.

Results

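The 9 genes examined, Adgre1, Csf1r, Cx3cr1, Cd163, Mrc1, C1qa, C1qb, Cd68 and Cd14, are markers of macrophages (Mφs) of the muscularis externa, the muscle coat of the gut. They were chosen by name as resident Mφ markers and the CSF1 receptor, with earlier results of these data known. All 9 were present among the 12975 genes of a RiboTag count table. The table held 12 libraries from 6 mice of the genotype PLPCreERT2 Rpl22HA, in which tamoxifen-inducible Cre directed to glia switches ribosomal protein Rpl22 to an HA-tagged form in enteric glial cells (EGCs). Anti-HA pull-down was therefore directed at glial ribosomes, and Mφs were not the targeted cells. Muscularis was taken from naive mice (T0, animals 1, 2 and 4) or from other mice 3 h after intestinal manipulation (T3, animals 1, 3 and 4), a surgical handling of the small intestine that provokes inflammation of the muscle coat. The cleared lysate of every mouse was divided between anti-HA antibody (HA) and a mouse IgG1 control antibody (IgG), which gave 4 groups of 3 libraries.

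All 4 groups shared both alleles and the tamoxifen, given as 2 intraperitoneal injections of 100 µl at 15 mg/ml in the oil Miglyol to mice of 10 to 12 weeks, with tissue taken 3 to 4 weeks after the first injection. The T0 animals were naive and not sham-operated, so surgery and its anaesthesia cannot be told apart from the manipulation itself. The study's methods describe its mice as female.

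Muscularis Mφs lie among smooth muscle cells and along the nerve plexus, where they clear debris and exchange signals with neurons and glia. Their survival depends on the CSF1 receptor, whose ligands are CSF1 and IL-34. Resident cells carry scavenger receptors and make complement C1q, whereas CD14 presents bacterial lipopolysaccharide to Toll-like receptor 4 and is readily induced in activated myeloid cells.

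Depth differed strongly between groups and set how precisely each gene could be measured. Totals of unique molecular identifiers (UMIs) were 1789710 to 2870591 in HA at T0, 388214 to 1289833 in IgG at T0, 1221788 to 1495439 in HA at T3 and 88136 to 248522 in IgG at T3. Levels are given as CPM (the count scaled to a common library total), which for this 3′ method are not divided by transcript length. A count of 0 allows up to 3 counts, or between 1.05 CPM (deepest library) and 34.04 CPM (shallowest library), and this limit covers counting error only. As a check of the pull-down, all 11 glial markers of a list that holds Sox10 and S100b had higher levels in naive HA than in IgG (median log2 fold change of 4.24), and all 12 smooth muscle markers were lower (median -1.45), by the edgeR quasi-likelihood test at an adjusted p under 0.05.

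The annotation of the mm10 genome (GENCODE M21) placed C1qa at chr4:136895917-136898803 and C1qb at chr4:136880129-136886187, both on the minus strand. Mrc1 lay on the plus strand at chr2:14229392-14332057, Adgre1 on the plus strand at chr17:57358691-57483527, Cd163 on the plus strand at chr6:124304656-124330527, Cd68 on the minus strand at chr11:69664213-69666153 and Cx3cr1 on the minus strand at chr9:119901616-120069879. Reads were counted in a window from 1000 bases before to 100 bases after the 3′ end of a gene. The window of Cx3cr1 also held an exon of Wdr48 on the opposite strand, and because the sources used here do not say whether counting was stranded, the Cx3cr1 level is uncertain. No exon of another gene fell in the windows of the other 6 genes placed here.

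Mrc1 and C1qb were both called lower in HA in the comparisons below, and their promoters are shown because myeloid promoters are known to carry PU boxes, the core GAGGAA bound by the macrophage factor PU.1 (encoded by Spi1). Each run covers the 250 bases before the RefSeq start (build GRCm38.p6), 5′ to 3′ on the gene's strand, with GAGGAA or its reverse complement TTCCTC in capitals; the first lies at chr2:14229164-14229413 (plus strand) and the second at chr4:136886201-136886450 (minus strand).
Mrc1: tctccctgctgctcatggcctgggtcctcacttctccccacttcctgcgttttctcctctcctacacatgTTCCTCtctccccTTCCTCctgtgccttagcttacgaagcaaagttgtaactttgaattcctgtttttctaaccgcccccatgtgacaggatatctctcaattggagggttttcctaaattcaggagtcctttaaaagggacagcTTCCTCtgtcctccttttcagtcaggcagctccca
C1qb: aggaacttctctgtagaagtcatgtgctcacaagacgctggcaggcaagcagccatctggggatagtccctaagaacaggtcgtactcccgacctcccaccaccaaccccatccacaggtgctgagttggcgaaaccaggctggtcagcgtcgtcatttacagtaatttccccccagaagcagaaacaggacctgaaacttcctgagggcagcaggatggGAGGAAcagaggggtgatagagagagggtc
The Mrc1 window held 3 matches and the C1qb window 1. In the set of 32851 RefSeq windows of the same length, 23.3% held at least 1 match on either strand, so a match is common. Windows were on hand for 5 of the 9 genes. That of Cd68 held 1 match and those of Cd163 and Cx3cr1 held 0, although Cx3cr1 was also called lower in HA at T0. The last 22 bases of the Mrc1 window lie in its annotated first exon. The motif was chosen after the levels were known, and a match describes letters only.

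The CSF1 receptor gene Csf1r, which encodes the receptor that Mφs need to survive, was found in every library. Its level in HA at T0 was 35.7, 46.4 and 27.2 CPM in animals 1, 2 and 4, and in IgG at T0 it was 38.6, 82.3 and 56.6 CPM. At T3 it was 10.6, 18.7 and 10.1 CPM in HA of animals 1, 3 and 4, and 11.3, 10.9 and 48.3 CPM in IgG, where the first 2 values rest on 1 count each. All 3 HA libraries at T3 lay below all 3 HA libraries at T0. In each naive animal the HA library was below its IgG partner, although the groups overlapped.

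Adgre1 encodes F4/80, the surface protein most used to identify mouse Mφs. Its level was 9.60, 9.50 and 5.23 CPM in HA and 23.2, 13.7 and 10.1 CPM in IgG at T0. Its level at T3 was 4.91, 2.01 and 2.34 CPM in HA and 11.3, 10.9 and 8.05 CPM in IgG. HA and IgG did not overlap at either time, but the IgG libraries at T3 held only 1, 1 and 2 counts.

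Cx3cr1, the fractalkine receptor of monocytes and many tissue Mφs, had the lowest mean level of the 9 genes in HA. It measured 4.22, 3.35 and 1.74 CPM in HA and 7.73, 8.57 and 10.1 CPM in IgG at T0, without overlap. In HA at T3 it measured 1.64, 0.669 and 0.779 CPM, from 2, 1 and 1 counts. In IgG at T3 it was seen as 1 count in animal 1 and as 0 in animals 3 and 4, so its level there was not measurable at this depth.

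Of the scavenger genes, Mrc1 encodes the mannose receptor CD206, a marker of resident and repair-type Mφs, and it was the gene set furthest apart between the pull-downs. It measured 4.61, 7.26 and 2.44 CPM in HA and 15.5, 32.6 and 8.53 CPM in IgG at T0. After manipulation it measured 1.64, 4.68 and 1.56 CPM in HA and 22.7, 10.9 and 40.2 CPM in IgG. Every HA library at each time lay below every IgG library of that time.

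Cd163 encodes the receptor that takes up haptoglobin-haemoglobin complexes. The Cd163 level was 6.14, 8.94 and 2.79 CPM in HA and 5.15, 20.6 and 7.75 CPM in IgG at T0, and 3.27, 2.67 and 3.89 CPM in HA at T3. The 3 IgG libraries at T3 held 1, 0 and 1 counts of Cd163. Its groups overlapped in both comparisons of HA with IgG and in both comparisons of time.

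Cd68 encodes a lysosomal glycoprotein of phagocytes. It measured 10.4, 11.2 and 5.92 CPM in HA and 7.73, 17.1 and 10.9 CPM in IgG at T0, and 2.46, 8.02 and 5.45 CPM in HA at T3. The IgG libraries at T3 held 0, 2 and 3 counts. No comparison separated its groups.

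C1qa and C1qb encode chains of C1q, the recognition molecule of the classical complement pathway, and supplied 63.1% to 80.4% of the summed counts of the 9 genes in each library. C1qa measured 164, 241 and 93.4 CPM in HA and 255, 317 and 149 CPM in IgG at T0. At T3 it measured 81.0, 99.6 and 89.5 CPM in HA and 261, 239 and 314 CPM in IgG. The groups overlapped at T0, whereas at T3 the lowest IgG library was above the highest HA library.

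C1qb measured 117, 140 and 79.8 CPM in HA and 160, 228 and 136 CPM in IgG at T0, and 23.7, 66.9 and 47.5 CPM in HA and 159, 109 and 117 CPM in IgG at T3. At T0 only HA of animal 2 reached the IgG range, and at T3 the ranges were apart. Within a library, C1qb held 0.715, 0.581 and 0.854 counts for each C1qa count in HA at T0 and 0.626, 0.719 and 0.917 in IgG at T0. In HA at T3 this ratio was 0.293 in animal 1, with an exact 95% interval of 0.187 to 0.447 for counting error, and 0.671 and 0.530 in animals 3 and 4, so animal 1 was the low library. In IgG at T3 the ratio was 0.609, 0.455 and 0.372.

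Cd14 encodes the lipopolysaccharide co-receptor and had an order of groups unlike the other 8 genes, with its highest mean in HA at T3. It measured 11.9, 8.94 and 6.27 CPM in HA and 18.0, 8.57 and 15.5 CPM in IgG at T0. At T3 it measured 36.8, 51.5 and 31.9 CPM in HA and 34.0, 32.6 and 32.2 CPM in IgG. All libraries at T3 were above all libraries at T0 within each pull-down, while the IgG values at T3 rest on 3, 3 and 8 counts.

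**Figure D1:**
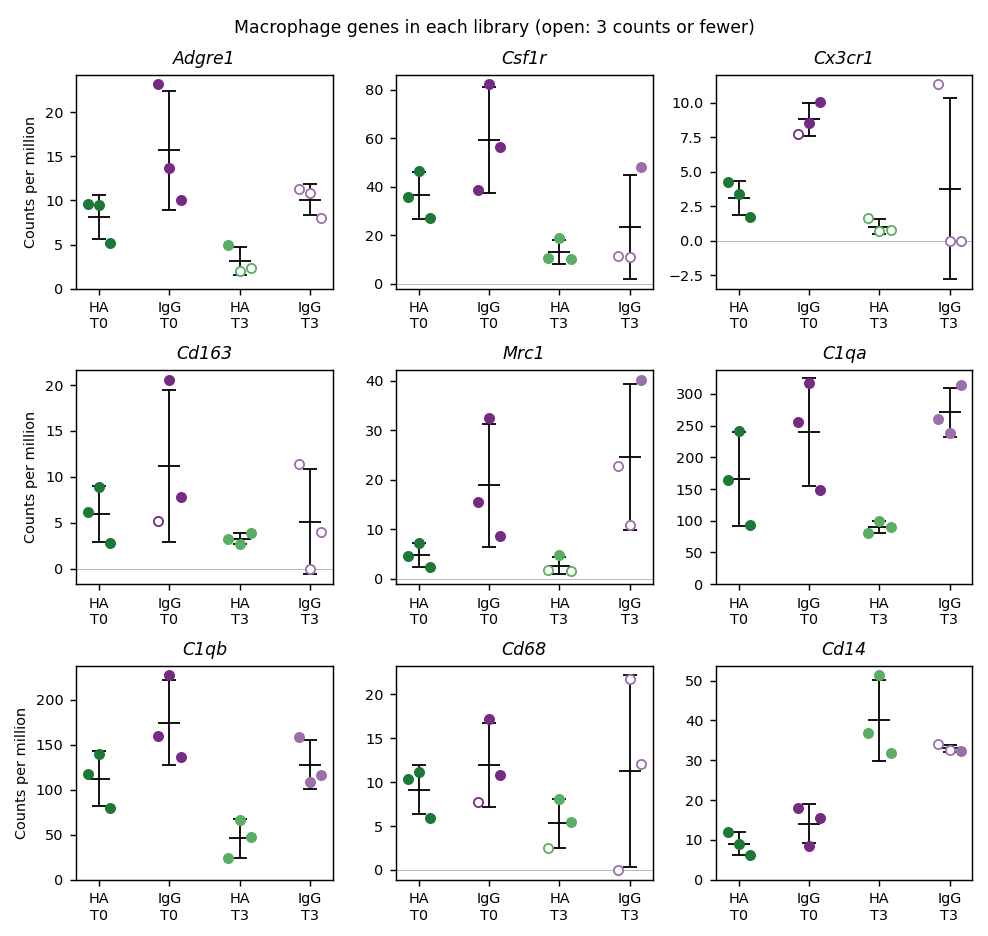
Level of each gene in CPM (linear axis) in the 3 libraries of each group, with horizontal marks and bars for mean ± SD; points run in animal order, and open points hold 3 counts or fewer. Cd14 is high in both groups at T3 (36.8, 51.5 and 31.9 CPM in HA), and the other 8 genes have their lowest group mean in HA at T3. The share of all genes lowest there was not computed. Bars that pass below 0 mark SDs larger than the mean.

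As group means in CPM, HA at T3 was the lowest of the 4 groups for 8 genes and the highest for Cd14. The share of all genes that were lowest there was not computed. On this scale of total counts, the median log2 fold change of all genes tested in HA with time was -0.29. A low mean in HA at T3 is therefore not particular to these genes. Csf1r was 36.4 ± 9.62 CPM in HA at T0, 59.2 ± 21.9 in IgG at T0, 13.2 ± 4.82 in HA at T3 and 23.5 ± 21.5 in IgG at T3 (SD, n = 3 libraries each). C1qa was 166 ± 74.0, 240 ± 85.1, 90.1 ± 9.32 and 271 ± 38.4 CPM in the same order. Cd14 was 9.04 ± 2.82, 14.0 ± 4.90, 40.1 ± 10.2 and 32.9 ± 0.970 CPM. Most neighbours in the order of means did not differ beyond their spread. Neighbouring groups with no shared range were HA at T0 above HA at T3 for Adgre1, Cx3cr1 and C1qb, IgG above HA at T0 for Mrc1, and IgG at T3 above IgG at T0 for Cd14.

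The first comparison asked whether Mφ transcripts held the same relative level in the glial pull-down as in the control pull-down of naive mice. Relative levels do not measure how much Mφ RNA either antibody carried. All 9 genes had fitted log2 fold changes below 0 in HA against IgG at T0, with a median of -0.75 against -0.02 for the 9823 genes tested. By the edgeR quasi-likelihood test with Benjamini-Hochberg adjustment, not paired by animal, 2 of the 9 were called lower. Of all genes tested, 14.4% were called lower. On the log2 scale, Mrc1 fell by 1.96 (SE 0.57, adjusted p = 0.0180) and Cx3cr1 by 1.57 (SE 0.53, adjusted p = 0.0367). Both passed the filter on low counts only through their IgG libraries, where they were higher. With no filter Mrc1 was still called (-1.87, edgeR adjusted p = 0.0200) and Cx3cr1 was not (-1.47, adjusted p = 0.0708). The HA and IgG libraries did not overlap for 3 genes, Adgre1, Cx3cr1 and Mrc1, beside 20.1% of all genes tested that lay apart in this direction.

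For the other 7 genes the difference did not pass at T0 in this unpaired fit. The edgeR log2 fold change of Csf1r was -0.75 (SE 0.31, adjusted p = 0.0791), that of C1qb was -0.65 (SE 0.26, adjusted p = 0.0717) and that of C1qa was -0.54 (SE 0.40, adjusted p = 0.356). Adgre1, Cd163, Cd14 and Cd68 had log2 fold changes of -0.85, -0.95, -0.65 and -0.43 with adjusted p from 0.183 to 0.501. With the animal as a replicate block, 5 genes were called lower, C1qa (-0.59, adjusted p = 0.00771), C1qb (-0.68, adjusted p = 0.00442), Csf1r (-0.76, adjusted p = 0.0267), Cx3cr1 and Mrc1. Calls rose over all genes as well, with 1945 of 9823 called lower with the block and 1412 without it.

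The calls at T0 depended on single libraries. Without IgG of animal 2 the Mrc1 log2 fold change was -1.24 (edgeR adjusted p = 0.171), and without HA of animal 4 it was -1.57 (adjusted p = 0.0715). The Cx3cr1 call was lost when any 1 of the 6 libraries was left out, with adjusted p up to 0.204.

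Animals differed in the level of these genes, and their summed level ranked the animals alike in both pull-downs at T0. The summed level of the 9 genes was 364, 477 and 225 CPM in HA and 531, 728 and 405 CPM in IgG of animals 1, 2 and 4. Animal 2 was highest and animal 4 lowest in both pull-downs. Taken singly, 8 of the 9 genes had the same animal as the highest in HA and in IgG, but only 4 of the 9 had the same lowest animal. All 9 were lowest in animal 4 in HA, while in IgG the lowest animal varied between genes. The share of all genes with such agreement was not computed.

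The HA library held 0.687, 0.655 and 0.555 of the IgG sum within animals 1, 2 and 4 at T0, and 0.318, 0.586 and 0.336 within animals 1, 3 and 4 at T3. All 6 ratios were below 1, and animal 3 at T3 lay within the range of the naive animals. At T3 the animal with the highest sum in HA (animal 3, 255 CPM) had the lowest in IgG (435 CPM).

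**Figure D2:**
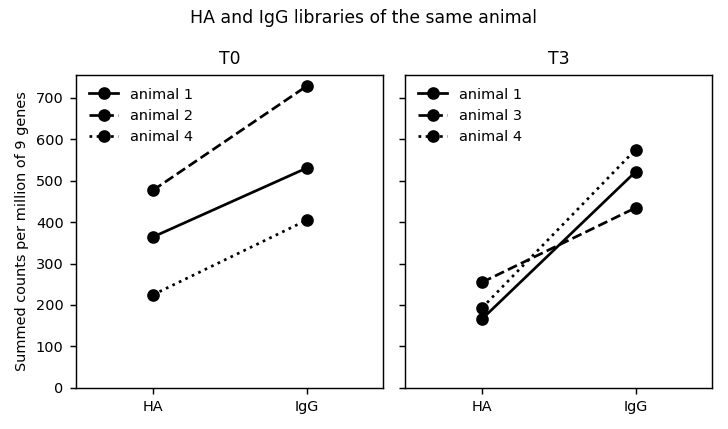
Summed level of the 9 genes in CPM (vertical axis from 0) in the HA and IgG libraries of each animal, joined by a line; animals with the same number at T0 and T3 are different mice. The HA library is below the IgG library in each of the 6 animals, with ratios from 0.318 to 0.687.

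The same comparison at T3 could be fitted for 3 of the 9 genes, because the other 6 had too few counts for the filter. On the log2 scale, C1qa fell by 1.53 in HA against IgG (SE 0.27, edgeR adjusted p = 0.000526) and C1qb by 1.35 (SE 0.39, adjusted p = 0.0186), where 10.2% of the 7200 genes tested were called lower. Cd14 had a log2 fold change of 0.37 (SE 0.46, adjusted p = 0.608), with a 95% interval from -0.59 to 1.34. C1qa and C1qb also had no overlap between HA and IgG, beside 16.4% of all genes tested that lay apart in this direction.

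The C1qb call was lost without HA of animal 1 (edgeR adjusted p = 0.0612) or animal 4 (0.0616) and without IgG of animal 1 (0.0735) or animal 4 (0.115), whereas C1qa was called in each of these fits. Among the 6 genes not fitted, Mrc1 had the lowest pooled ratio of HA to IgG, 0.0906, with an exact 95% interval of 0.0368 to 0.219 for counting error only. With no filter Mrc1 had a log2 fold change of -3.04 (edgeR adjusted p = 0.000760). Ratios for Adgre1, Csf1r, Cx3cr1, Cd163 and Cd68 were 0.321, 0.413, 0.429, 0.696 and 0.471, and only the counting interval of Csf1r (0.226 to 0.806) lay wholly below 1. That Csf1r ratio rests on IgG of animal 4, which held 12 of the 14 IgG counts. Without this library the fitted Csf1r log2 fold change was 0.53 (edgeR adjusted p = 0.810), and within animals 1, 3 and 4 the Csf1r ratio of HA to IgG was 0.938, 1.72 and 0.210.

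**Figure D3:**
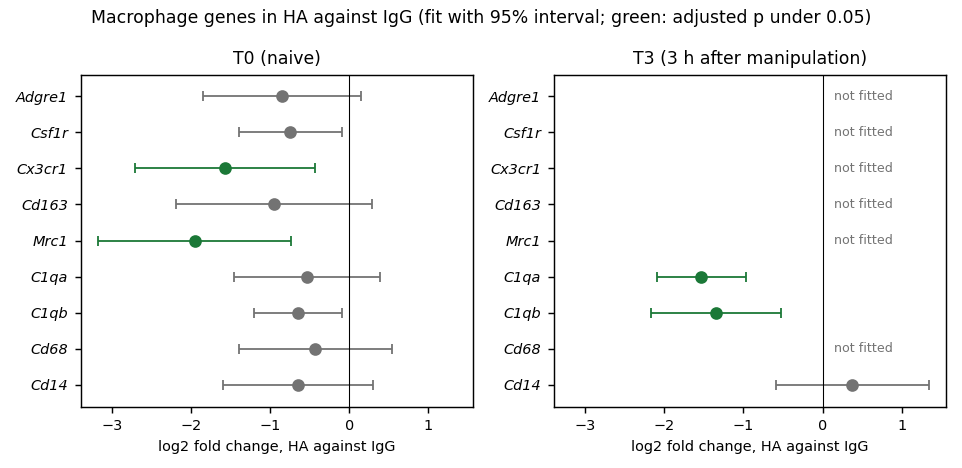
Fitted log2 fold change of HA against IgG (horizontal axis) with its 95% interval at T0 and T3, in green where the adjusted p was under 0.05; genes marked as not fitted had too few counts. All 9 points at T0 lie below 0, and at T3 C1qa (-1.53) and C1qb (-1.35) lie below 0 and Cd14 (0.37) above it.

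The second question was how these genes changed within 3 h of manipulation in the glial pull-down. Of the 5 genes fitted in HA at T3 against T0, 1 was called higher and 1 lower, where 18.7% of the 9441 genes tested were called higher and 15.1% lower. On the log2 scale, Cd14 rose by 2.41 (SE 0.31, edgeR adjusted p = 4.29e-06), and it was called in each of the alternatives and with any 1 library left out, with adjusted p from 1.71e-09 to 4.12e-05. Csf1r fell by 1.17 (SE 0.31, adjusted p = 0.00666), also called throughout, with adjusted p from 0.000625 to 0.0489. These libraries come from tissue pull-downs that did not target Mφs. Fewer Mφs, less RNA per Mφ and less Mφ RNA carried with the pull-down therefore cannot be told apart.

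C1qb had a log2 fold change of -1.01 in HA with time (SE 0.35, edgeR adjusted p = 0.0512), C1qa of -0.62 (SE 0.31, adjusted p = 0.157) and Cd68 of -0.46 (SE 0.45, adjusted p = 0.458). Without HA of animal 4 at T0, C1qb (-1.26, adjusted p = 0.00449) and C1qa (-0.95, adjusted p = 0.00126) were called lower, and Adgre1 entered the fit and was called lower as well (-1.44, adjusted p = 0.0412). C1qb was also called without HA of animal 3 at T3 (adjusted p = 0.0107), with RLE scaling (0.0490), by DESeq2 (0.00935) and in the fit of all 12 libraries (0.0207). Scaling by total counts moved the median of all genes to -0.29, from -0.02 with TMM scaling, and under it C1qb (-1.27) and C1qa (-0.88) were called lower.

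The HA libraries at T3 and T0 did not overlap in CPM for 3 of the 5 fitted genes. Csf1r and C1qb were lower at T3, beside 35.2% of all genes tested that lay apart in that direction, and Cd14 was higher, beside 15.6%. Among the 4 genes not fitted, Adgre1 and Cx3cr1 also lay apart. Their pooled CPM at T3 were 0.382 and 0.330 of those at T0, with exact 95% counting intervals of 0.187 to 0.720 and 0.0827 to 0.972. Pooled ratios are scaled by total counts, under which the median log2 fold change of all genes tested was -0.29. A ratio of 1 is therefore not the level of the median gene, and the Cx3cr1 interval does not set it apart from that gene. Cx3cr1 also rests on 2, 1 and 1 counts at T3. The ratios of Cd163 (0.590) and Mrc1 (0.624) had intervals that reached 1.13 and 1.27.

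In the control pull-down with IgG, 0 of the 4 genes fitted were called between T3 and T0 by the edgeR quasi-likelihood test, where 4.43% of the 5219 genes tested were called higher and 1.03% lower. By edgeR 1 of the 4, Cd14, had an unadjusted p under 0.05. DESeq2 gave an adjusted p for 5 of the 9 genes and called 0, with 0 at an unadjusted p under 0.05. Cd14 had a log2 fold change of 1.20 (SE 0.55, edgeR adjusted p = 0.230), and its libraries at T3 all lay above those at T0, beside 13.4% of all genes tested. C1qa, C1qb and Csf1r had log2 fold changes of 0.20, -0.47 and -0.97 with adjusted p from 0.342 to 0.769. Without IgG of animal 4 at T3 the Csf1r log2 fold change was -2.50 (edgeR adjusted p = 0.131).

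Because IgG at T3 was shallow, its pooled ratios to T0 were wide. Mrc1 had a ratio of 1.90 with a counting interval of 0.927 to 3.68, Adgre1 of 0.703 (0.180 to 2.00) and Cx3cr1 of 0.251 (0.00607 to 1.56). Pooled C1qa CPM was 1.36 times as high at T3 (1.11 to 1.67 for counting error), while its fitted 95% interval on the log2 scale, which also covers the spread between libraries, was -0.49 to 0.89.

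**Figure D4:**
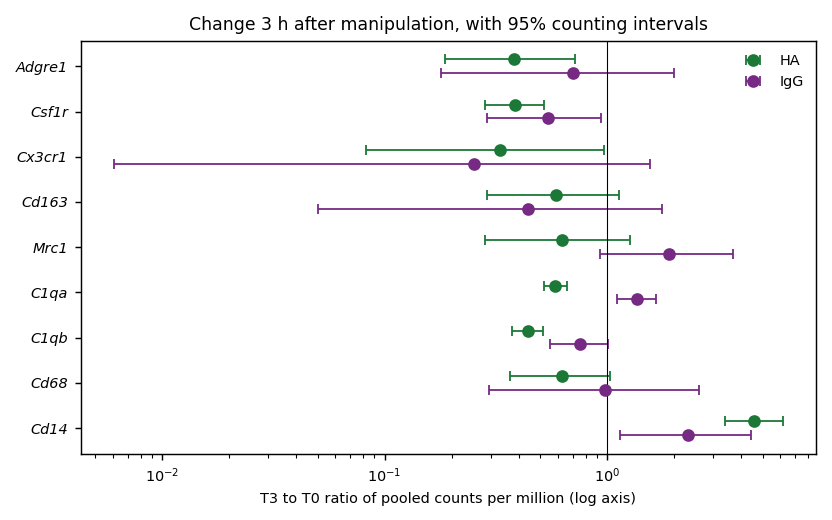
Ratio of T3 to T0 in pooled CPM (log axis) for each gene in HA (green) and IgG (purple), with exact 95% intervals that cover counting error only. In HA, Cd14 lies above 1 (4.55) and Csf1r (0.386) and C1qb (0.439) below it, and the IgG intervals of Cx3cr1 and Cd163 are the widest. Ratios are scaled by total counts, under which the median log2 fold change of all genes tested in HA was -0.29, so 1 is not the level of the median gene.

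An interaction term of antibody and time tested if HA and IgG changed unequally after manipulation. By edgeR 0 of the 9 genes were called, with 1 at an unadjusted p under 0.05, where 0.33% of 10314 genes were called. DESeq2 gave an adjusted p for C1qa, C1qb and Csf1r alone and called 0 of these 3, and 0 of the 9 had an unadjusted p under 0.05. Cd14 had the smallest p, with a log2 difference of 1.27 (SE 0.61, edgeR adjusted p = 0.468). For C1qa it was -0.74 (SE 0.46, adjusted p = 0.607) and for Mrc1 -1.09 (SE 0.95, adjusted p = 0.741). The 95% interval of the Csf1r difference ran from -1.46 to 1.18, which leaves both a larger fall and a smaller fall in HA possible at this depth.

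Other Mφ and pan-leukocyte genes were taken as a list of 32, of which 28 were in the table. At T0, 18 of the 19 tested had log2 fold changes below 0 in HA against IgG, 3 were called lower and 1 higher, and the median was -0.68. Of all genes tested, 14.4% were called lower and 16.0% higher. C1qc, the third chain of C1q, fell by 0.77 (SE 0.24, edgeR adjusted p = 0.0275), the invariant chain gene Cd74 by 1.04 (SE 0.28, adjusted p = 0.0143) and the scavenger receptor gene Stab1 by 1.65 (SE 0.46, adjusted p = 0.0152). Cd72, which the paper counts among typical markers of resident Mφs, was higher by 1.24 (SE 0.38, adjusted p = 0.0231).

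At T3, 12 of the 13 tested genes of that list were below 0 and 5 were called lower, with a median of -0.94, beside 10.2% called lower of all genes tested. Among them were Laptm5 (-1.85, edgeR adjusted p = 0.000946), a lysosomal gene of leukocytes, and Spi1 (-2.31, adjusted p = 0.00679), which encodes PU.1. The Spi1 call rests on 2, 2 and 10 counts in IgG, and the gene passed the filter on low counts only through these libraries. Ptprc, the gene of the leukocyte antigen CD45, was at 2.20 ± 0.936 CPM in HA and 8.25 ± 2.74 CPM in IgG at T0 (SD, n = 3). Its level at T3 was 0.978 ± 0.312 CPM in HA and 4.96 ± 5.49 CPM in IgG. These T3 values rest on 1, 2 and 1 counts in HA and 0, 1 and 1 in IgG, so a difference was not measurable at this depth.

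With time in HA, 12 of the 15 tested genes of the list were below 0, 4 were called lower and 0 higher by edgeR, with a median of -0.57, beside 15.1% called lower and 18.7% higher of all genes tested. C1qc fell by 1.03 (SE 0.30, edgeR adjusted p = 0.0163), beside the -1.01 of C1qb and -0.62 of C1qa. The lysozyme gene Lyz2 fell by 1.20 (SE 0.23, adjusted p = 0.000748), from 202 ± 29.8 to 73.1 ± 27.1 CPM (SD, n = 3). The adaptor gene Tyrobp fell by 1.16 (SE 0.29, adjusted p = 0.00447) and the cathepsin gene Ctss by 1.04 (SE 0.37, adjusted p = 0.0415). In IgG with time, 0 of the 12 tested were called by edgeR, with a median of -0.53.

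**Figure D5:**
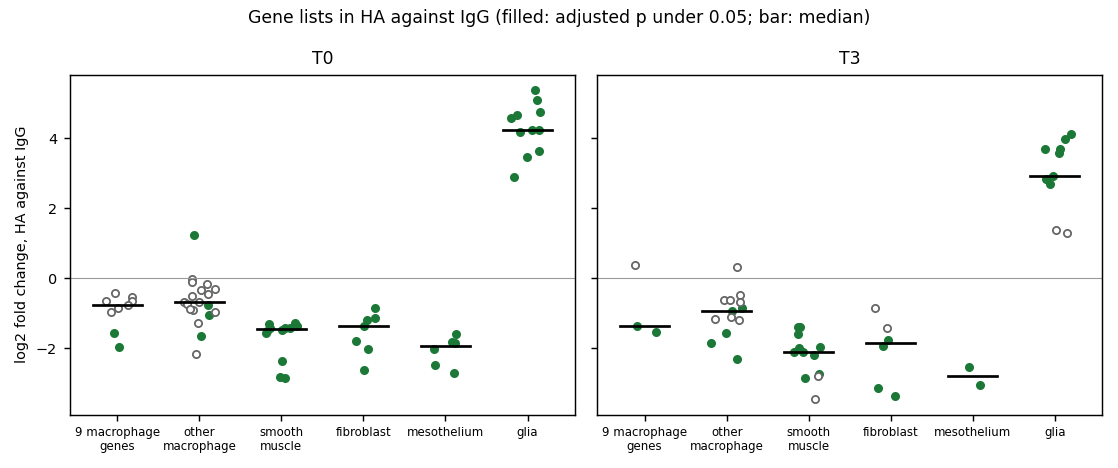
Log2 fold change of HA against IgG (vertical axis) for the tested genes of each list at T0 and T3, filled where the adjusted p was under 0.05, with a bar at the median. At T0 the 9 genes (median -0.75) and the other Mφ genes (-0.68) lie between 0 and the smooth muscle (-1.45), fibroblast (-1.35) and mesothelial genes (-1.92), and glial genes lie far above 0 (4.24).

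Markers of other cells of the muscularis moved beside these genes. The 7 fibroblast genes tested and the 6 mesothelial genes tested were all called lower in HA at T0, with medians of -1.35 and -1.92. With time in HA, 5 of the 7 fibroblast genes tested were called lower (median -1.43) and 5 of the 5 mesothelial genes (median -2.69). The summed smooth muscle list was 23117 to 34604 CPM in HA at T0 and 17966 to 21202 CPM in HA at T3, and the glial list was 4022 to 4911 and 4800 to 5528 CPM. The part of these shifts in the change of the Mφ genes was not tested.

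A list of CSF ligands and receptors also held the myeloid transcription factor gene Irf8. All 5 list genes tested were called higher in HA with time, opposite in direction to Csf1r, beside 18.7% of all genes tested. Csf3, with 0, 1 and 0 counts in HA at T0, passed the filter on low counts only through its T3 libraries. On the log2 scale Csf1 rose by 0.90 (SE 0.19, edgeR adjusted p = 0.000899) and in naive mice it was also higher in HA than in IgG (1.35, adjusted p = 0.000530), where it measured 116, 142 and 144 CPM in HA and 38.6, 61.7 and 51.9 CPM in IgG. Il34, the other CSF1R ligand, rose by 1.27 (SE 0.45, adjusted p = 0.0445), from 20.0, 9.50 and 5.57 CPM to 33.6, 15.4 and 23.4 CPM, ranges that overlapped. Csf2ra, Irf8 and Csf3 were the other 3 genes that rose. In IgG with time, Csf3 rose by 7.80 (edgeR adjusted p = 0.000185) and Csf1 had a log2 fold change of 0.82 (adjusted p = 0.280). The interaction for Csf1 was 0.17 (edgeR adjusted p = 0.930). At T3, Csf3 was lower in HA than in IgG (-1.67, edgeR adjusted p = 0.0104) and Csf1 was higher (1.27, adjusted p = 0.0113). Csf2ra was lower in HA than in IgG at T0 (-1.06, edgeR adjusted p = 0.0295).

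The partner genes of the remaining receptors were uneven. Cx3cl1, the ligand of CX3CR1, was higher in HA than IgG in naive mice (log2 fold change 1.64, edgeR adjusted p = 0.0465), while Cx3cr1 was lower in HA at T0. At T3 it measured 63.8, 44.8 and 59.2 CPM in HA and was seen in IgG as 0, 0 and 1 counts (edgeR adjusted p = 0.000658). Hmox1, the haem-degrading enzyme induced after haemoglobin uptake through CD163, rose by 4.46 in HA (edgeR adjusted p = 2.07e-10) and by 3.94 in IgG (adjusted p = 0.000268), whereas pooled Cd163 was at 0.590 and 0.440 of its T0 level with counting intervals that held 1. C1s1, a protease that acts with C1q, fell by 1.13 in HA with time (adjusted p = 0.00196).

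For CD14, 2 of the 5 partner genes tested were called higher in HA with time and 0 lower, beside 18.7% higher and 15.1% lower of all genes tested. Tlr2 rose by 2.10 (SE 0.28, edgeR adjusted p = 7.70e-06) and the adaptor Myd88 by 1.30 (SE 0.23, adjusted p = 0.000229). In IgG, Tlr2 rose by 2.80 (SE 0.50, adjusted p = 0.00345). Tlr4, the signalling partner of CD14, had a mean of 7.09 CPM in HA at T0 and of 1.51 CPM in HA at T3 and was at 0 in all 3 IgG libraries at T3, and Ly96 was not among the genes of the table.

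Of the monocyte and neutrophil genes, 2 of the 3 tested were called higher in HA with time beside Cd14. Of all genes tested, 18.7% were called higher. Both called genes, S100a9 and Lcn2, passed the filter on low counts only through their T3 libraries. The list count is therefore partly set by the filter and cannot be weighed against that share. The list of 14 had 8 genes in the table, with a summed level of 25.1 to 116 CPM in HA at T0, 55.3 to 173 CPM in HA at T3, 38.0 to 60.0 CPM in IgG at T0 and 145 to 318 CPM in IgG at T3. S100a9, an abundant neutrophil gene, measured 1.15, 0.559 and 0.348 CPM in HA at T0 and 98.2, 16.7 and 18.7 CPM in HA at T3 (edgeR adjusted p = 0.0170), and it was at 0 in every IgG library at T0. Lcn2 rose by 3.33 (adjusted p = 9.62e-06). Mmp9, the third gene tested, was at 68.8 ± 45.1 CPM in HA at T0 and 16.1 ± 1.71 CPM in HA at T3 (SD, n = 3; log2 fold change -1.83, adjusted p = 0.164 by edgeR). Too few counts kept the monocyte genes Ccr2 and Plac8 from the test of HA at T3 against T0. In HA against IgG at T0 both were called lower, beside 14.4% of all genes tested. The log2 fold change was -2.23 for Ccr2 (edgeR adjusted p = 0.0116) and -1.33 for Plac8 (adjusted p = 0.0274). Ccr2 passed the filter on low counts there only through its IgG libraries. Mmp9 lay above 0 there and was not called. Ccr2 measured 2.30, 5.03 and 1.05 CPM in HA at T0 and 0, 0.669 and 3.89 CPM at T3, and Plac8 10.4, 10.6 and 4.88 CPM at T0 and 0, 4.01 and 3.11 CPM at T3. In IgG at T3, S100a9 measured 125, 10.9 and 56.3 CPM, and its log2 fold change of HA against IgG was -0.41 (edgeR adjusted p = 0.812). Lcn2 was called lower in HA than in IgG at T3 (-1.49, edgeR adjusted p = 0.0488). S100a9 was highest in HA of animal 1 at T3 while Cd14 was highest in animal 3. The part of these cells in the Cd14 level was not tested.

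Among the 8 genes whose pattern over the 12 libraries was most like the mean profile of the 9 genes were Cldn7, Ecm1, Ace, Cav3, Phgr1, Spink1 and Moxd1, with Pearson r from 0.94 to 0.97 on log2(CPM + 5). The profile was the mean of 8 genes, as Cx3cr1 had too few counts. Of the genes themselves, C1qa (0.94), C1qb (0.90) and Mrc1 (0.89) were nearest to the profile, Adgre1 (0.78), Csf1r (0.72), Cd163 (0.59), Cx3cr1 (0.50) and Cd68 (0.49) less so, and Cd14 had an r of -0.30. The points share library depth and the split between HA and IgG, and these coefficients describe the 12 libraries only. Of the 8 genes, 2 stayed among the nearest by Spearman correlation and 4 without the IgG libraries at T3.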

How the data were processed

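RNA from 12 HA and IgG pull-downs of 6 mice was made into bulk MARS-seq libraries, a 3′ method with UMIs. Per the labels, the authors trimmed with cutadapt, mapped with STAR 2.4.2a to mm10 and counted with HTSeq in 3′ windows; the deposited tables hold raw UMI counts for each gene. Samples of similar cycle number were pooled, up to 8 in a pool, before amplification, and which shared a pool is not given in the sources used here. Counting near the 3′ end makes levels depend on the annotated end of a gene.

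Counts were tested with edgeR 4.0.16 (quasi-likelihood, robust, TMM scaling, filterByExpr) in R 4.3.3 on each pair of groups, and the interaction on all 12 libraries. P-values were adjusted over all genes tested by the Benjamini-Hochberg method at 0.05. The test was checked on simulated counts. Intervals on pooled ratios are exact 95% conditional binomial intervals and cover counting error only. HA and IgG of an animal came from the same split homogenate, so their numbers pair them; deviations from group means correlated at 0.267, 0.267 and 0.271 within naive animals and at 0.160, 0.151 and 0.0875 at T3. Across times the numbers mark different mice. The unblocked fit, which ignores the pairing of HA and IgG, was kept as the main one because the authors name DESeq2 without a design formula. The replicate block is the fit that uses the pairing. Alternatives were RLE and total-count scaling, other filters, DESeq2 1.42.0, a fit of all 12 libraries, the replicate block and leaving out each library.

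The 9 genes, the lists and the naming rule (all 9 genes, at most 5 called genes of smallest p per list and contrast, and fixed partner genes) were chosen with earlier results of these data known. List calls are counts beside those of all genes, with no test of a list. A gene that the naming rule selects is not reported here.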

Additional observations from a re-analysis of the deposited data

How the results depend on the processing

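Of 419 values of the 9 genes under alternatives, 385 kept their direction and side of the threshold, 13 gained a call, 16 lost one and 5 changed direction. The causes were not tested. With 1 library left out, the C1qa change with time in IgG ran from -0.0716 (without IgG of animal 4 at T0) to 0.39, and was -0.03 without IgG of animal 4 at T3. The interaction of Csf1r ran from -0.55 to 1.39 and that of Cx3cr1 from -0.43 to 5.18, with 1.39 and -0.43 both without IgG of animal 4 at T3, and that of Cd68 from -0.83 to 0.000719 (without IgG of animal 3 at T3).

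Of the 9 genes, the 2 called between HA and IgG at T0 became 1 with no filter, 1 with a filter of 5 counts, 1 by DESeq2, 1 in the fit of all 12 libraries, 5 with the replicate block, and 0 to 2 with 1 library left out. At T3 the 2 called became 3, with Mrc1 added, with no filter, with a filter of 5 counts, by DESeq2 and when all 12 libraries were fitted together, and 1 to 3 with 1 library left out. In HA with time the 2 called became 3, with C1qb added, with RLE scaling, by DESeq2 and in the fit of all 12 libraries, 4 with total-count scaling, and 2 to 5 with 1 library left out. The replicate block changed no call of the 9 genes at T3 or in the interaction.

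Over all genes, the 2980 called between HA and IgG at T0 became 3807 with the replicate block. The 1578 called between HA and IgG at T3 became 849 to 1977 with 1 library left out. In IgG with time 285 genes were called, 519 with no filter, 705 in the fit of all 12 libraries and 162 to 334 with 1 library left out. The interaction called 34 genes, 20 with RLE scaling, 8 with total counts, 87 by DESeq2, 158 with the replicate block and 5 to 95 with 1 library left out. In HA with time, calls were 1765 higher and 1422 lower, and 1202 higher and 2660 lower with total counts. Of the 8 genes most like the profile, 2 stayed by Spearman correlation, 5 with a pseudocount of 1 and 4 without the IgG libraries at T3. Leaving out a library leaves 2 in its group.

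Depth limits what IgG at T3 can show: its libraries held at most 12 counts of Csf1r and 0 to 3 of Adgre1, Cx3cr1, Cd163 and Cd68, and changes of these genes there were not detectable at this depth.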
